A study of Mus musculus with 13 samples.

Results

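Carbonic anhydrases are the zinc enzymes that turn carbon dioxide and water into bicarbonate and a proton. The transcripts of 10 of them were followed in mouse tongue epithelium, namely Car2, Car3, Car4, Car5b, Car6, Car8, Car9, Car12, Car13 and Car14, which are 10 of the 24972 genes in the authors' deposited table. The genes were chosen by family name with the fold changes of this same comparison already known, so their values below are a description and not independent evidence. The table held 6 further genes of the family (Car1, Car5a, Car7, Car10, Car11 and Car15), which are given for completeness. PolyA RNA had been sequenced from 13 samples of tongue epithelium. In the H3K36M group of 6 samples the genotype was Krt14-Cre positive with the Cre-inducible (LSL) H3K36M allele, and in the control group of 7 samples the same LSL-H3K36M allele was present but Krt14-Cre was not. H3K36M is a histone H3 with methionine in place of lysine at residue 36, and the Krt14 promoter drives Cre in the basal layer of stratified epithelia, so cells outside the keratin-14 lineage are not expected to carry the recombined allele. All samples of the mutant group and none of the controls carried Cre, so an effect of Cre alone and one of the mutant histone cannot be told apart. Age, sex and strain were not given in the labels used here.

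In epithelia, carbonic anhydrases supply bicarbonate and protons to exchangers and channels, which set the pH inside the cell, at its surface and in secreted fluid. The family is ordered by where the enzyme sits. Car1, Car2, Car3, Car7 and Car13 are cytosolic, Car5a and Car5b are mitochondrial, Car4 and Car15 are tied to the outer membrane by a lipid anchor, Car9, Car12 and Car14 span the membrane with the active site outside, and Car6 is secreted in saliva. Car8, Car10 and Car11 carry the fold but lack catalytic activity. Car9 is best known as a gene switched on in low oxygen through a hypoxia-inducible factor (HIF) site next to its start.

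Promoters are shown for the 3 membrane-spanning enzymes, of which Car9 was the only family gene past the threshold, Car12 the most abundant of the 3 and Car14 the tested family gene with the most negative fold change. The sequences are RefSeq windows on GRCm38.p6, from 250 bases before to 50 after the annotated start, 5′ to 3′ on the strand of the gene, and capitals mark ACGTG or its reverse complement CACGT, the core of the HIF site.
Car9, chr4:43506776-43507075, plus strand: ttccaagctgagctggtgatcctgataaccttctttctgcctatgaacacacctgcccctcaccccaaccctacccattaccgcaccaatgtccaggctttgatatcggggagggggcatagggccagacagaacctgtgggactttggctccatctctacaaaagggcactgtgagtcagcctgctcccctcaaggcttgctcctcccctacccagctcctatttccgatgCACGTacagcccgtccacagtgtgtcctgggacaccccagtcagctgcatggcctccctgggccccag
Car12, chr9:66713436-66713735, plus strand: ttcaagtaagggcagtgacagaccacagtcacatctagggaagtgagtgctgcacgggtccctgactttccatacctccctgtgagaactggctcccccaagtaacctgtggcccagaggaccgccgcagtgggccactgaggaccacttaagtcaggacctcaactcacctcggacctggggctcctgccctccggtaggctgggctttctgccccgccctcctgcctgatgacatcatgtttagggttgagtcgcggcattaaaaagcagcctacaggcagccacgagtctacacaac
Car14, chr3:95904636-95904935, minus strand: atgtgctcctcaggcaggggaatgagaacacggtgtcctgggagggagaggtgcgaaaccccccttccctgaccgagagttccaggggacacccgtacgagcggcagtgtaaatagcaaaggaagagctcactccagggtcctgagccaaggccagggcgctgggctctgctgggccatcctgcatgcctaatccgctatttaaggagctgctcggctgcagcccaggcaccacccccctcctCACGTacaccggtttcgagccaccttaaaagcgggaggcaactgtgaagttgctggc

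The Car9 window held 1 core, starting 18 bases before the RefSeq start on the opposite strand. Car14 also held 1, starting 7 bases before its start, and the Car12 window held none. Distances here are counted from RefSeq starts. GENCODE M21 places the start of Car9 further upstream, at 43506966, so by that annotation the Car9 core lies inside the gene. The variant core GCGTG, or CACGC, was in none of these 3 windows. RefSeq windows were found for 6 of the 10 listed genes, and 4 of the 6 held ACGTG on either strand, Car4 with 1 match and Car6 with 2 besides Car9 and Car14. The 2 matches of Car6 overlap, as the 2 strands of 1 CACGTG that starts 149 bases before its start. GCGTG was in 2 of the 6, with 5 matches in Car5b and 1 in Car6. Of 32817 promoter windows of the same length, 19.6% held ACGTG and 32.4% held GCGTG on either strand, and a window can hold both. A match is a description of the letters.

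Values of single samples were not in the files used here. The authors' deposited table gives a mean over all samples and 1 level per group in normalised counts, that is, read counts divided by a depth factor for each library, with the log2 fold change of H3K36M over control, its standard error (SE) and an adjusted p from DESeq2. Whether the groups overlap sample by sample therefore cannot be read. The SE is a model value that combines counting error with an estimated spread between samples, for which DESeq2 also draws on other genes. The labels do not say that samples came from separate animals, so the p-values refer to variation between these samples. Levels summed over all genes came to 15769751 normalised counts per library on average. Relative depths, recovered from genes read in a single library, lay between 0.728 and 1.23 for control and between 0.645 and 1.77 for H3K36M libraries. All 14 genes of the tongue epithelium marker list had reads. In bulk RNA, fewer cells of a type and less RNA per cell cannot be told apart.

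Car9 was the family gene that rose, and the 2 abundant enzymes, Car12 and Car13, did not pass the threshold. In the authors' deposited table, 8 of the 10 listed genes had an adjusted p, 1 (Car3) was set aside as an outlier and 1 (Car6) had too low a mean. By the authors' deposited table (DESeq2, adjusted p below 0.05), 1 of these 8 genes was higher and 0 lower, against 1.85% of 17449 tested genes higher and 1.59% lower. At an unadjusted p below 0.05 the count was also 1 of 8, where 9.82% of all tested genes lay. The genes had been picked with this contrast known, so nothing is read from these shares. The same shares of all tested genes apply beside each count of the lists below, which were also chosen with earlier results known. The 3 other tested family genes (Car7, Car11 and Car15) had no call, and Car9 was also the only one of the 11 tested at an unadjusted p below 0.05. Fold changes were positive for 4 and negative for 4 of the 8 listed genes. Their median log2 fold change was −0.04, that of the 11 tested family genes 0.09 and that of all tested genes 0.07 in the authors' deposited table.

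**Figure D1:**
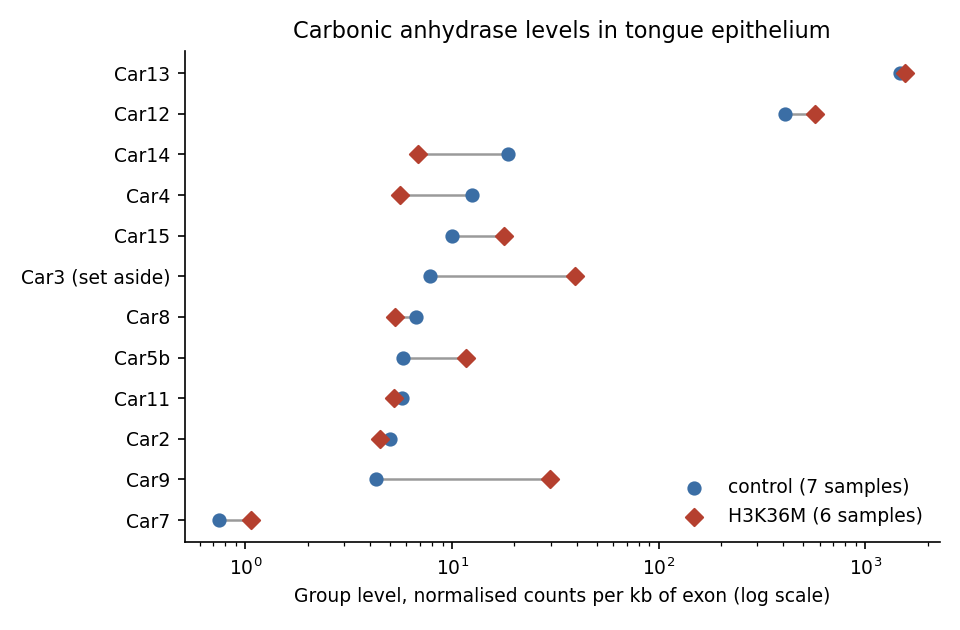
Group levels of 12 carbonic anhydrase genes in control (circles, 7 samples) and H3K36M (diamonds, 6 samples), in normalised counts per kb of exon on a log axis; each point is 1 deposited group level, without a spread. Car13 and Car12 lie far above the rest in both groups, and Car9 moves from 4.29 to 29.7.

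Among the membrane-spanning enzymes, Car9 went from a level of 9.88 normalised counts in control to 68.5 in H3K36M in the authors' deposited table. Its log2 fold change there was 2.79 (SE 0.32, 7 against 6 samples, 95% interval 2.16 to 3.42), a 6.93-fold higher level with an interval from 4.48 to 10.7, and adjusted p = 6.34e-15 (DESeq2 by the authors). By p, Car9 ranked 11 among all 17449 tested genes of that table. Its SE was small for a gene of this level. Of 1888 tested genes with a mean from 20 to 60 normalised counts, 13.7% had an SE as low, and their median SE was 0.59 in the authors' deposited table. Counting error alone would account for about 33.9% of the variance behind that SE, and the rest corresponds to a modelled coefficient of variation (CV) between samples of about 0.326, with depth factors taken as 1. In normalised counts summed over a group, this was about 69.2 in control and 411 in H3K36M.

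Car12, an enzyme with an extracellular active site found in many secretory epithelia, stood at 3103 normalised counts in control and 4315 in H3K36M in the authors' deposited table. That difference, a log2 fold change of 0.48 (SE 0.29, 95% interval −0.10 to 1.05), did not pass (adjusted p = 0.722 there, DESeq2). The interval reaches a 2.07-fold increase and a level 0.933 times the control. Per kb of exon, where genes can be set side by side, the level of Car9 was 1.05% of the level of Car12 in control and 5.23% in H3K36M, so Car9 remained the rarer transcript of the pair in both groups.

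Car14, the third of these enzymes, had levels of 47.6 in control and 17.4 normalised counts in H3K36M in the authors' deposited table. Its log2 fold change of −1.45 had an SE of 1.13 (95% interval −3.67 to 0.76, adjusted p = 0.899, DESeq2), so the difference was not resolved at that SE. The CV between samples implied by that SE was about 1.39. Aph1a lies on the opposite strand and overlaps Car14, and how reads were assigned by strand was not given in the sources used here. Aph1a itself had a log2 fold change of 0.35 (SE 0.71) in that deposited table.

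**Figure D2:**
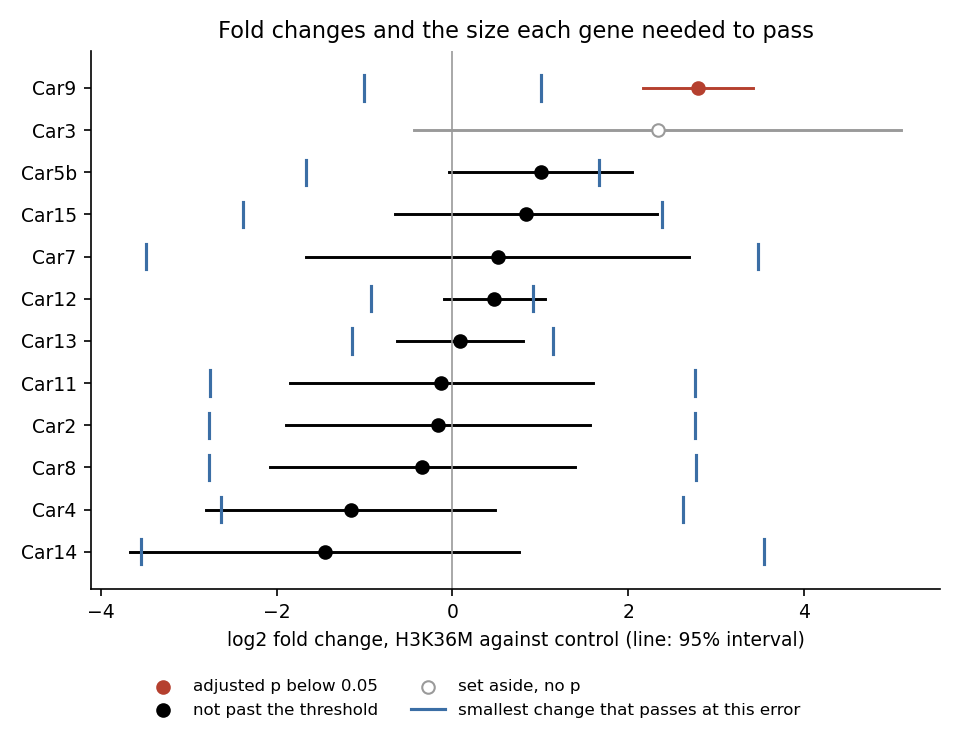
Log2 fold changes (points) with 95% intervals (lines) of the 11 tested carbonic anhydrase genes and Car3, which was set aside without a p. The blue ticks mark the smallest change, in either direction, that would have passed at each gene's own SE; only the Car9 point lies beyond its tick.

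Of the lipid-anchored enzymes, Car4, which faces the outside of capillary and taste receptor cells, had levels of 24.5 in control and 10.99 in H3K36M in the authors' deposited table. With a log2 fold change of −1.16 (SE 0.84, 95% interval −2.80 to 0.48), it was not past the threshold (adjusted p = 0.847, DESeq2). Car15 stood at 18.97 against 33.99 normalised counts, with a log2 fold change of 0.84 (SE 0.76), in the authors' deposited table. Car4 and Car14 are both known from the muscle membranes of mice. The skeletal muscle list had levels summing to 124262 in control and 34992 in H3K36M, with 17 of its 19 tested genes at a negative fold change, a median of −1.76 on the log2 scale and 0 calls, with 1 gene at an unadjusted p below 0.05, by the authors' deposited table. Endothelial markers summed to 1530 and 1440 normalised counts and taste cell markers to 299 and 430, with 0 calls among 10 and 9 tested genes and 0 and 1 at an unadjusted p below 0.05. The part of these cells in the values of Car4 and Car14 was not tested.

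The cytosolic enzymes were led by Car13, whose level was 3374 normalised counts in control and 3591 in H3K36M in the authors' deposited table. Its log2 fold change of 0.09 (SE 0.37, 95% interval −0.63 to 0.81) was near that of the median tested gene. Per kb of exon, Car13 was the most abundant family member in both groups, at 1468 and 1562 normalised counts, followed by Car12 at 408 and 568. Together these 2 genes made up 96.0% of the family's summed level per kb in control and 94.3% in H3K36M. Below them, the 9 other tested genes ran in control from 18.7 per kb for Car14 to 0.746 for Car7, and in H3K36M from 29.7 for Car9 to 1.06 for Car7. Car3, which was set aside, stood at 7.83 and 39.5 per kb, and the deposited levels of Car1, Car5a and Car6 lay between 0.0400 and 0.240 over both groups. The control level of Car6 is not a measured abundance, since 2 reads in 1 H3K36M library account for its count, as given below. With SEs of log2 fold changes between 0.29 and 1.13 among the tested genes, and no spread given for a single level, the order of neighbours here is not established.

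Car2, the fast cytosolic form of red cells, bone and kidney, was low in this tissue, with levels of 12.2 in control and 10.8 in H3K36M in the authors' deposited table (log2 fold change −0.17, SE 0.88). Erythroid markers summed to 2088 and 1281 normalised counts, and 0 of 7 tested passed, with Hbb-bs listed at 0 and 1 gene at an unadjusted p below 0.05. Car3, abundant in muscle and fat of rodents and a slow enzyme for carbon dioxide, had levels of 22.4 in control and 113 in H3K36M in the authors' deposited table. The log2 fold change of 2.34 had an SE of 1.41 (95% interval −0.43 to 5.10), and the gene was set aside there as an outlier, so it has no p. This flag marks a gene in which at least 1 sample lies far from its group, and which sample it was is not given. Of all 175 genes set aside in that table, 151 had a higher level in H3K36M. By default, DESeq2 replaces outlying values in groups of 7 or more samples and sets genes aside only for smaller groups. The settings used were not given. With 7 control and 6 H3K36M samples, this direction and the group sizes cannot be told apart, so nothing is read from it. Among adipocyte markers 6 of 11 were set aside as well, all 6 with a higher level in H3K36M, such as Adipoq (0.724 against 15.1 normalised counts) and Cidec (0.177 against 20.7) in the authors' deposited table. The whole adipocyte list summed to 3709 normalised counts in control and 1952 in H3K36M, mostly Lpl and Fabp4, and the mean of Lep was 0.100. In the muscle list 17 of 19 tested genes had a negative fold change, as given above. The part of fat or muscle tissue in the value of Car3 was not tested.

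Car13, Car1, Car3 and Car2 lie next to each other on chromosome 3 (14641727 to 14900770 from the start of Car13 to the end of Car2, GENCODE M21 on GRCm38). Car1 had a mean of only 0.271 normalised counts in the authors' deposited table, and Car3, whose end is 13.8 kb from the start of Car2, had a mean of 64.3 against 11.6 for Car2.

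The mitochondrial enzyme Car5b, which supplies bicarbonate to carboxylases, came closest to the threshold after Car9. Its level was 36.8 normalised counts in control and 74.0 in H3K36M in the authors' deposited table. This is a log2 fold change of 1.01 (SE 0.53, 95% interval −0.03 to 2.05), with an unadjusted p of 0.0581 and adjusted p = 0.553 (DESeq2). Car8, which lacks catalytic activity and binds the inositol trisphosphate receptor, stood at 25.8 and 20.4 (log2 fold change −0.34, SE 0.88) in the authors' deposited table. For Car11, another inactive form, the levels of 11.04 and 10.13 there differed by −0.12 on the log2 scale (SE 0.88). Car7, a cytosolic form best known from neurons, had levels of 2.71 and 3.87 (log2 fold change 0.51, SE 1.11) in that deposited table.

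Car6, the secreted enzyme of saliva, was close to absent. Its normalised count summed over all 13 samples was 1.38 in the authors' deposited table, which is exactly 2 times the value of 1 read in a single library of the H3K36M group (relative tolerance 1e-08), so 2 reads in 1 H3K36M library and 0 elsewhere account for it. The fold change deposited for such a gene is no measure of the difference: every gene read once, in 1 library, carried the same deposited log2 fold change of 0.50 or −0.39, according to the group of that library. At this depth a difference in Car6 was not detectable. Of the salivary secretory markers, 4 of 9 tested (Aqp5, Muc19, Spdef and Smgc) passed the threshold upward and 0 downward in the authors' deposited table. Among all tested genes, 1.85% were higher and 1.59% lower. Another 4 markers were set aside with a higher level in H3K36M, a direction from which nothing is read, as for Car3. The water channel gene Aqp5 rose from 3.05 to 226 normalised counts there (log2 fold change 6.21, SE 1.30, adjusted p = 0.000185, DESeq2). Aqp5 and Spdef had a larger unadjusted p (DESeq2) than Slc26a4, so with the t distribution given below they would not keep their calls. Of the 5 tested without a call, 2 had negative fold changes in that deposited table. These were the salivary amylase gene Amy1, at 515 in control and 91.4 in H3K36M (log2 fold change −2.49, SE 1.02, adjusted p = 0.245), and Prb1 (−1.32, SE 2.83). The list summed to 1544 normalised counts in control and 17519 in H3K36M, of which Bpifb1, one of the genes set aside, held 986 and 16639. Without the 4 genes set aside the sums were 541 and 703 in the authors' deposited table. Of the family genes that were not listed, Car1 and Car5a had means of 0.271 and 0.206 normalised counts in the authors' deposited table, both below the smallest mean with an adjusted p (0.405), and Car10 had no reads.

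The size of change that each gene could have shown differed widely. A Wald statistic (fold change over SE) of 3.14 was the smallest to pass in the authors' deposited table. At their own SEs, Car12 would have needed a 1.89-fold and Car13 a 2.21-fold change to pass, Car9 a 2.01-fold change and Car5b a 3.17-fold change. For Car4 this was 6.18-fold, for Car2 6.80-fold, for Car8 6.82-fold and for Car14 11.7-fold. For every gene without a call this size is larger than its own change by definition, so that comparison is not a further result.

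**Figure D3:**
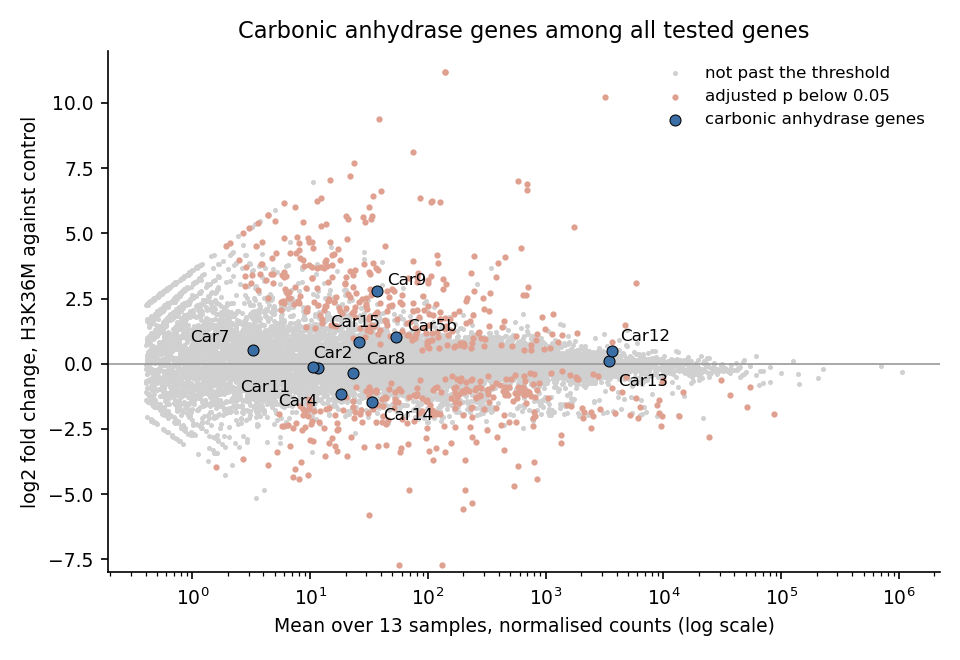
Log2 fold change against mean level (log axis) for 17422 tested genes of the authors' deposited table (grey, and light red where the adjusted p is below 0.05), with the 11 tested carbonic anhydrase genes in blue; 5 genes lie outside the axis from −8 to 12 and date-named rows are left out. Car9 lies among the genes past the threshold, while Car12 and Car13 lie near 0 at the high end.

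The increase of Car9 was set beside the genes around it. Car9 lies on chromosome 4 (43506966 to 43513729, plus strand, GENCODE M21 on GRCm38). Of 8 other genes annotated within 50 kb, 7 were tested, and 0 of these passed in either direction (DESeq2 by the authors), with log2 fold changes from −1.79 to 0.51 in the authors' deposited table. Ccdc107, 11.05 kb upstream, had the highest of them at 0.51 (SE 0.23, unadjusted p = 0.0297, adjusted p = 0.383), and was the only one at an unadjusted p below 0.05 in that deposited table. The tropomyosin gene Tpm2, which ends 0.982 kb beyond Car9 on the opposite strand, stood at 8059 in control and 4713 in H3K36M there (log2 fold change −0.77, SE 0.46). Gm12454, an antisense gene that overlaps Car9, was not in the table, so reads from it cannot be told apart from those of Car9 if counting ignored the strand.

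**Figure D4:**
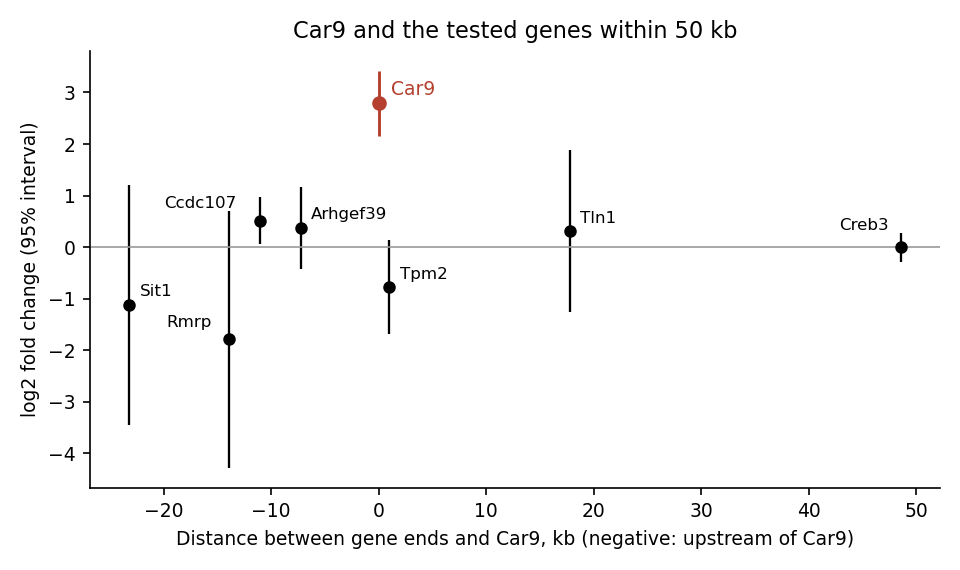
Log2 fold changes with 95% intervals for Car9 (red) and the 7 tested genes within 50 kb, placed by the distance in kb between the gene and Car9 (negative values upstream). Car9 lies at 2.79, and the other genes between −1.79 and 0.51.

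The listed genes known to rise in low oxygen, the setting in which Car9 is best known, had no call. By the authors' deposited table (DESeq2), 0 of 26 tested genes of that list were higher and 0 lower, and 0 had an unadjusted p below 0.05. The shares over all tested genes were 1.85%, 1.59% and 9.82%. Their log2 fold changes ran from −0.52 to 0.94 with a median of −0.04. Aldoa and Ldha, glycolytic enzymes with the highest means of the list, stood at −0.42 (SE 0.24) and 0.10 (SE 0.21) in the authors' deposited table. Slc2a1, the glucose carrier, had the highest value at 0.94 (SE 0.50, adjusted p = 0.561), and Vegfa stood at 0.06 (SE 0.55) there. The list does not cover all such genes. Aldoc, an aldolase gene outside it, was higher, with a log2 fold change of 0.98 (adjusted p = 2.57e-06, DESeq2) in that deposited table. The part of low oxygen in the value of Car9 was not tested.

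Partners of the carbonic anhydrases in bicarbonate transport held 2 higher and 0 lower genes of 18 tested in the authors' deposited table, where 1.85% of all tested genes were higher and 1.59% lower. Fold changes were positive for 15 of the 18, with a median log2 fold change of 0.59 against 0.07 for all tested genes. An unadjusted p below 0.05 was found for 4 of the 18 and for 9.82% of all tested genes. Slc4a9, an anion exchanger of salivary acini and kidney, rose from 19.7 to 47.4 normalised counts (log2 fold change 1.27, SE 0.25, adjusted p = 3.16e-05, DESeq2) in the authors' deposited table. Slc26a4, the anion exchanger pendrin, rose from 0.178 to 12.8 there (log2 fold change 6.17, SE 1.29, adjusted p = 0.000156, DESeq2). With about 1 read in control and 81 in H3K36M, its ratio was 90.6 with an exact counting interval from 15.8 to 3621, which covers counting error only. Its call was lost with a t distribution in place of the normal (adjusted p = 0.0539, against a range from 3.76e-05 to 0.000177 over the 4 other alternatives with a value). Best2, a bicarbonate-permeable channel, stood at 10.6 and 46.7 normalised counts (log2 fold change 2.14, SE 0.77) and was not past the threshold (adjusted p = 0.116) in the authors' deposited table. Cftr was at 1.28 and 2.24 normalised counts there. Beside these, 4 of 9 salivary markers passed upward, as given above, and 4 of 8 tested duct and ionocyte markers did so in the authors' deposited table, with 0 lower and summed levels of 3101 and 4277 normalised counts. These 4 were all keratin genes of simple epithelia (Krt7, Krt8, Krt18 and Krt19), while Slc12a2 (0.14, SE 0.36), Ascl3 (1.62, SE 2.14), Stap1 (0.85, SE 0.70) and Elf5 (−0.44, SE 0.34) had no call in that deposited table (log2 fold changes). The part of gland cells in the values of Slc4a9, Slc26a4 and Car9 was not tested. The ionocyte genes Foxi1 and Bsnd had means of 0.100 and 0.231 normalised counts, below the level that was tested.

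**Figure D5:**
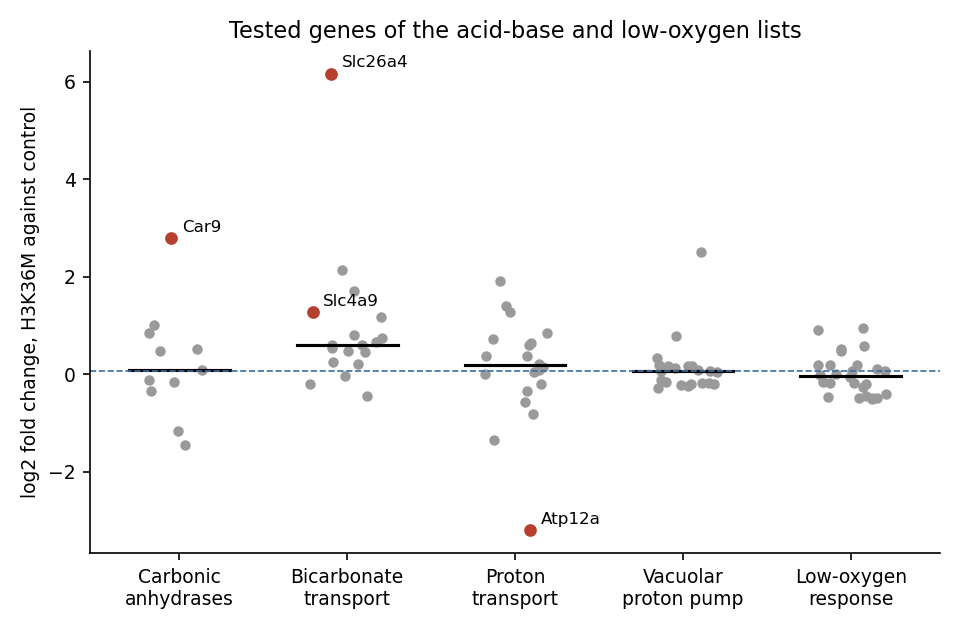
Log2 fold changes of the tested genes of 5 lists, with the list median (black bar), the median of all tested genes (dashed line, 0.07) and genes past the adjusted threshold named in red; points are spread sideways only for legibility. Car9, Slc4a9 and Slc26a4 lie above 0 and Atp12a below it, and no gene of the vacuolar pump or low-oxygen lists is marked.

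Proton transport genes held 0 higher and 1 lower of 20 tested in the authors' deposited table, with 2 at an unadjusted p below 0.05 and a median log2 fold change of 0.18. Over all tested genes in that deposited table, 1.85% were higher, 1.59% lower and 9.82% at an unadjusted p below 0.05. Atp12a, the catalytic subunit of the non-gastric proton-potassium pump, fell from 49.2 to 5.33 normalised counts there (log2 fold change −3.21, SE 0.55, adjusted p = 1.17e-06, DESeq2). The lactate carriers Slc16a1 (−0.58, SE 0.20, adjusted p = 0.108, but 0.0298 with the Wald statistic centred and scaled, and 0.108 to 0.377 in the other alternatives) and Slc16a3 (1.91, SE 0.999, adjusted p = 0.545) did not pass in that deposited table. Of 21 tested genes of the vacuolar proton pump 0 passed in either direction (DESeq2 by the authors), 1 had an unadjusted p below 0.05, and the median log2 fold change was 0.06. That gene, Atp6v1b1, is the subunit of acid-secreting cells and stood at 1.07 against 6.04 normalised counts (log2 fold change 2.50, SE 0.92, adjusted p = 0.139) in the authors' deposited table. The subunit genes of highest mean, Atp6v1a and Atp6v1e1, had log2 fold changes of 0.19 (SE 0.39) and −0.19 (SE 0.32) there.

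Among the other marker lists, 3 of 14 tongue epithelium genes were lower and 0 higher (Krt14, Krt76 and Krt36), 2 of 11 immune genes were higher (S100a8 and S100a9), and 1 of 7 Schwann cell and melanocyte genes was lower (Dct) in the authors' deposited table. Beside these, 1.85% of all tested genes were higher and 1.59% lower. Keratinocytes also make S100a8 and S100a9. The 9 other tested immune genes had no call in that deposited table, among them Ptprc (log2 fold change 0.002, SE 0.24) and Cd68 (0.18, SE 0.25). Fibroblast (6 tested) and adipocyte markers (4 tested) had 0 calls there, and 0 at an unadjusted p below 0.05.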

How the data were processed

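PolyA RNA of tongue epithelium was read as single ends from directional libraries, per the labels' protocols, with 7 control and 6 H3K36M samples grouped by the genotype label. The submitters' processing notes name STAR, DESeq2 and the mouse build GRCm38 (mm10), with neither versions nor roles. For the counting tool and its annotation, nothing was given in the sources used here.

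The authors deposited 1 table of gene statistics without values of single samples, so no count test could be fitted and the tests are theirs. Per the file headers, the mean and group levels are normalised counts, a signal scale of the authors. Fold changes and their SEs are on the log2 scale, the Wald statistic is a score, and the p-values and adjusted p-values are Wald results, all as deposited by the authors. In all 19909 genes with reads the ratio of the levels equalled the deposited fold change, and their average weighted by 7 and 6 samples the mean (tolerance 1e-06). The levels may thus have been derived from those values. The deposited tables of gene ontology terms name no genes and were not used. Columns of other series were 0.

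From the table were computed 95% intervals (fold change and its SE, normal), the CV implied by each SE, the smallest change that passes at that SE, and levels per kb of merged exons (GENCODE M21). Depth factors came from values shared by at least 20 genes with a summed normalised count under 2.2, taken as genes read in 1 library. They hold if each library had 1 factor. The adjustment was tested on simulated data. Python 3.11.15, pandas 2.3.3, NumPy 2.4.6, SciPy 1.17.1 and matplotlib 3.10.9 were used.

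The members and all gene lists were chosen with earlier results of these data known. Named were all family genes and, from each pathway list, every gene with a call or, in lists without one, the 2 of highest mean. Marker genes were named only beside a result they touch, fewer than the rule allows, and genes named outside it (Slc2a1, Vegfa, Aldoc, Best2, Cftr, Foxi1, Bsnd, Slc16a1, Slc16a3, Atp6v1b1, Adipoq, Cidec, Lep, Hbb-bs, Amy1, Prb1, Bpifb1, Slc12a2, Ascl3, Stap1, Elf5, Ptprc, Cd68) were chosen after their values were seen. The neighbouring genes Aph1a, Ccdc107 and Tpm2 also fall outside the rule. No set test was run. The 6 alternatives concern the adjustment, the filter on low means, the reference distribution, the centring of the statistic and the thresholds.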

Additional observations from a re-analysis of the deposited data

How the results depend on the processing

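Car9 kept its call under every alternative that could test it, with adjusted p from 2.65e-17 to 0.00401 over 5 alternatives. With genes of a mean of at least 50 normalised counts only, Car9 (mean 36.9) was not tested, and the counts of higher carbonic anhydrases, higher bicarbonate transport genes and lower proton transport genes were 0, since the called genes have lower means. With a t distribution of 11 degrees of freedom for the Wald statistic, 1 bicarbonate transport gene (Slc4a9) was higher in place of 2, as Slc26a4 had adjusted p = 0.0539. With the statistic centred and scaled, 2 proton transport genes were lower in place of 1, as Slc16a1 passed at 0.0298. Over all genes, the main counts of 322 higher and 277 lower became 129 and 186 at a mean of at least 50, 105 and 69 with the t distribution, 374 and 418 with centring and scaling, and 229 and 179 at an adjusted p below 0.01. The other family genes stayed without a call in 53 comparisons with a value, where the lowest adjusted p was 0.444. Among these are the settings with an adjusted p below 0.01 or an absolute log2 fold change above 1. Both only tighten the main rule, so no gene could gain a call there. Taking the median of all tested genes (0.07) from each log2 fold change left Car9 at 2.73 and changed no sign among the 11 tested. Single genes taken through the alternatives were the tested family genes, Slc4a9, Slc26a4, Atp12a and Slc16a1. For these, 77 adjusted p-values kept their side of the threshold, 1 call was lost and 1 gained. Of the counts, 55 stayed within 1.5 times and 5 moved, but most of the 55 were 0 against 0. The calls of Aldoc and the marker genes were not taken through. Aqp5, Spdef, Krt8, Krt18, Krt14, S100a8, S100a9 and Dct had a larger unadjusted p (DESeq2) than Slc26a4. With the t distribution, which keeps the order of the genes, none of these would keep its call. Leaving out a replicate, another size factor method and a count test were not run, as they need values of single samples. No paired analysis was possible because the labels share no replicate numbers between groups and no values of single samples are at hand. Car6, Car1 and Car5a, with means of 0.106, 0.271 and 0.206 normalised counts, lay below the smallest mean with an adjusted p (0.405). For Car7, counting error would account for about 16.2% of the variance behind its SE.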
